A study of Mus musculus with 6 samples.

Results

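Podosomes are small actin-rich adhesions of macrophages and osteoclasts, in which a core of branched actin is ringed by integrins and the adaptor proteins that tie them to the cytoskeleton. In osteoclasts, the cells that resorb bone, podosomes pack into a belt and, on mineral, into the sealing zone, which closes off the acidic space under the cell. The integrin alpha v beta 3 and the kinase Src are known for their part in that structure. Here 10 genes of this machinery were followed, chosen by symbol: the integrin chains Itgb3 and Itgav, the kinases Src and Ptk2b, the adaptors Tln1 and Vcl, the actin regulators Actn1, Gsn and Scin, and the GTPase Cdc42. All 10 were present among the 11031 rows of the deposited expression table.

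The series holds RNA sequencing of RAW264.7, a mouse macrophage line that forms osteoclast-like cells when given the cytokine RANKL. It has 6 samples, 3 untreated controls (Ctrl) and 3 stimulated with RANKL (RANKL), with RNA taken after 3 days. The labels number the biosamples within each group, and no source used here says whether they were separate cultures. The columns of values per library carry letters that match none of the sample labels, so they could be assigned to neither condition and were not used. For this reason no value of a control or of a RANKL library is given, the conditions were not compared, and no spread between replicates is given. What could be described is the level of each gene averaged by the authors, on a log scale (taken as log2) of FPKM, a fragment count scaled by transcript length and by the size of the library. The header does not say which libraries entered that mean. A gene that is high in one condition and low in the other therefore cannot be told apart from one at a middling level in both. Since FPKM is per length, levels may be set side by side between genes, but each is a single pooled value with no error. Depth per sample was not assessed either, because the counts per library were not used.

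Markers of macrophages and of osteoclasts were both present in the pooled levels. Of 9 macrophage markers 7 were listed, from 4.45 for Adgre1 to 12.37 for Lyz2 on the log2 FPKM scale, and the M-CSF receptor gene Csf1r stood at 8.65. All 9 osteoclast markers were listed, with the protease gene Ctsk at 6.74, the phosphatase gene Acp5 at 5.94, Mmp9 at 5.17 and the calcitonin receptor gene Calcr lowest at 0.45. The other markers below the median of all rows (3.60) were the cell fusion gene Ocstamp at 2.72 and the receptor gene Oscar at 2.54. Of the 8 markers of osteoblasts or fibroblasts, Runx2 and Pdgfrb were listed, at 0.53 and 0.30, and none of 5 lymphocyte markers, 5 neutrophil markers and 5 markers of epithelium or endothelium was among the rows.

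The 10 podosome genes covered most of the range of the table. Cdc42, a small GTPase that steers actin assembly and cell polarity, had the highest level of the 10 at 8.24, and 98.2% of all rows lay at or below it. Itgb3, the beta chain of the osteoclast vitronectin receptor, had the lowest at 1.41, with 11.9% of rows at or below it. These genes were 6.83 apart on the log2 scale. The median of the 10 was 4.89, beside 3.60 for all rows, and 7 of the 10 lay at or above the median of the table. Itgb3, Scin and Src were the 3 that lay below it.

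**Figure D1:**
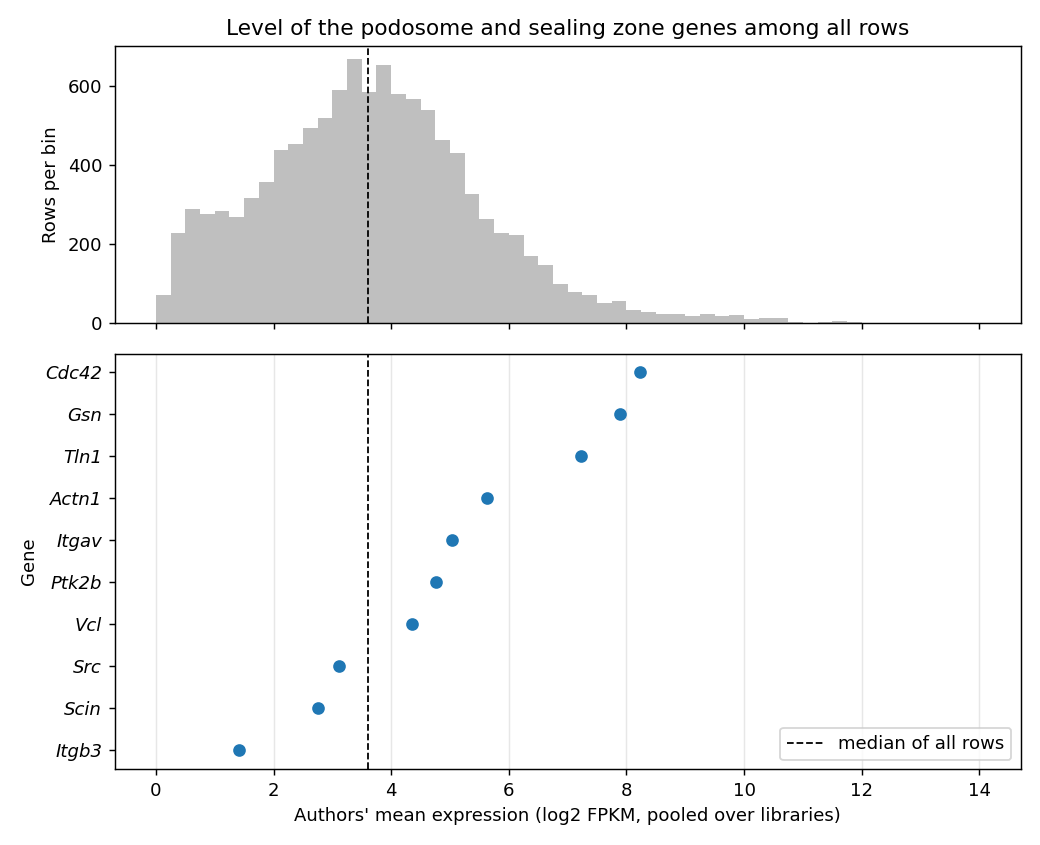
The upper panel gives the number of table rows in each bin of the authors' mean expression (log2 FPKM, bins 0.25 wide), and the lower panel gives the same mean for each of the 10 genes, 1 point a gene, with the median of all rows (3.60) as a dashed line. Itgb3 (1.41), Scin (2.76) and Src (3.11) sit left of that line, and the other 7 genes lie right of it, up to Cdc42 at 8.24.

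In order of level, Cdc42 was followed by Gsn at 7.90, Tln1 at 7.22, Actn1 at 5.63, Itgav at 5.03, Ptk2b at 4.76, Vcl at 4.35, Src at 3.11, Scin at 2.76 and Itgb3 at 1.41. The widest steps between neighbours in this order were 1.59 between Tln1 and Actn1, 1.35 between Scin and Itgb3, and 1.24 between Vcl and Src. They set Cdc42, Gsn and Tln1 apart at the top, Src and Scin apart from the genes above them, and Itgb3 apart as the lowest. The narrowest step was 0.28, between Itgav and Ptk2b. Whether neighbours differed beyond the replicate spread could not be assessed, because no replicate values were used.

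The chain genes of the integrin receptor had unequal levels in the pooled mean. Itgav encodes the alpha v chain, which pairs with several beta chains, and stood at 5.03, a level reached or undercut by 79.0% of rows. Itgb3, which forms the vitronectin receptor together with it, was 3.63 lower on the log2 scale. Whether that gap holds in control or in RANKL libraries alone cannot be told from the pooled mean. Among the 8 integrin beta genes 5 were listed, and Itgb3 was the lowest of the 5. The leukocyte chain Itgb2 was at 7.69, Itgb1 at 6.07, Itgb7 at 4.62 and Itgb5 at 3.85. Itgb1 and Itgb5, which can also pair with alpha v, exceeded Itgb3 by 4.67 and 2.44. Itgb4, Itgb6 and Itgb8 were not among the rows.

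Among the alpha chains 9 of 18 genes were listed, and Itgav ranked the fourth of them. Itgam, the alpha chain of the macrophage complement receptor, was at 6.60, and Itga4 was at 6.36. Itga5, the fibronectin receptor chain, had the same rounded level as Itgav, 5.03. Itgax followed at 4.05 and Itgal at 2.24. Itga7, Itga6 and Itgae lay low, at 1.44, 1.34 and 0.23. The chain genes Itgb2 and Itgam lay above both chains of the vitronectin receptor in the pooled mean, whereas Itgax and Itgal, whose products also pair with that of Itgb2, lay between Itgav and Itgb3.

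The kinases that act under the integrin differed from one another as well. Ptk2b encodes Pyk2, a kinase of the focal adhesion kinase family that is activated at podosomes. Ptk2b was at 4.76, with 74.4% of rows at or below it. Its relative Ptk2, which encodes FAK, was 0.38 lower at 4.38. Src, the tyrosine kinase whose loss leaves mice with osteoclasts that cannot resorb, was at 3.11, 1.64 below Ptk2b. Among its Src family relatives described here, the myeloid members Lyn (5.61) and Fgr (4.85) and the widely expressed Fyn (4.05) lay above it, by 2.50, 1.73 and 0.93. Lck, known from T cells, was lower at 1.63.

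The adaptor genes Tln1 and Vcl, whose products join integrins to actin, lay above the median of the table. Tln1 encodes talin, which binds the tails of beta integrins and switches them on, and stood at 7.22 with 96.2% of rows at or below it. Its relative Tln2 was at 0.94, lower by 6.28. Vcl encodes vinculin, which binds talin and actin at the podosome ring, and was at 4.35, 2.87 below Tln1. The related alpha-catenin gene Ctnna1, of cell-cell junctions, was 1.06 higher than Vcl at 5.41, whereas Ctnna3 was at 0.21.

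Of the actin regulators, Gsn was near the top of the table and Scin was in its lower part. Both encode calcium-dependent proteins that sever and cap actin filaments. Gsn, or gelsolin, was at 7.90 (97.7% of rows at or below), and Scin, which encodes scinderin, known also as adseverin, was at 2.76 (31.8%), a gap of 5.14. Among 6 listed genes of the gelsolin family, the capping protein gene Capg was higher than both at 9.75, Flii was at 5.34, Avil at 2.80 close to Scin, and Svil at 1.17. Actn1 encodes a non-muscle alpha-actinin that crosslinks actin filaments, and was at 5.63. The other listed alpha-actinin gene, Actn4, was 1.14 higher at 6.77, and Actn2 and Actn3, the muscle forms, were not among the rows.

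Cdc42 was the highest of 11 listed genes among its GTPase relatives. Rhoa, which drives contractility, was 0.34 lower at 7.90, and the blood cell gene Rac2 was at 7.47. Rhoc followed at 7.01, Rac1 at 6.73 and Rhog at 6.41. The close Cdc42 relatives Rhoq and Rhoj were at 3.93 and 0.96, and the atypical members Rhov and Rhou, of which Rhou is known to be induced in osteoclasts, were at 1.36 and 1.22.

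**Figure D2:**
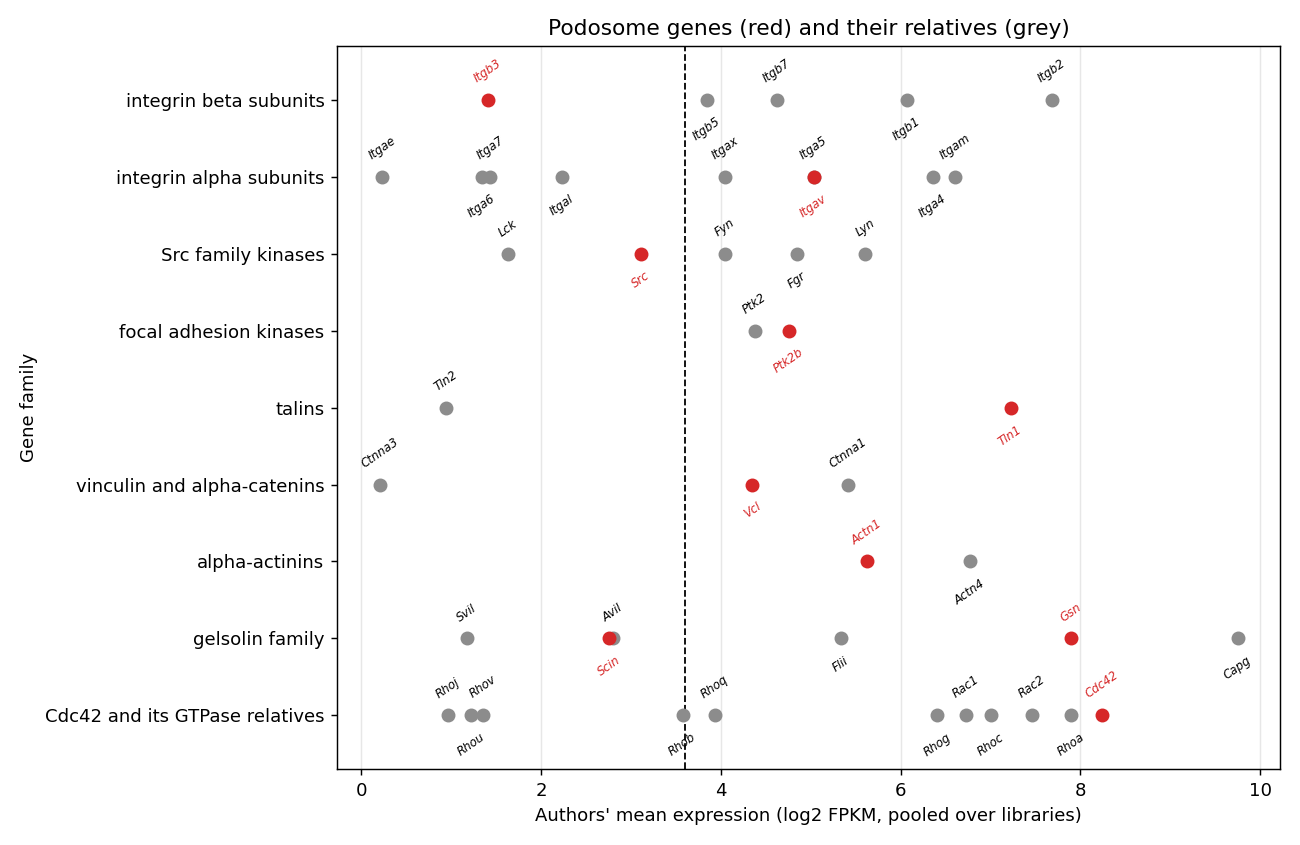
Each row is a gene family and each point 1 gene, placed by the authors' mean expression (log2 FPKM), with the podosome genes in red, their relatives in grey and the median of all rows (3.60) as a dashed line. Cdc42, Tln1 and Ptk2b are the highest of their families, Itgb3 is the lowest of 5 integrin beta genes at 1.41, and Gsn (7.90) and Scin (2.76) stand far apart.

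The wider pathway was described by 6 lists holding 80 genes, of which 74 were in the table. Of these 74 genes 60 lay at or above the median of all rows. The genes that build the podosome core lay highest as a list, with a median of 6.96 over 19 listed genes. Profilin (Pfn1, 9.55) and the Arp2/3 subunit Arpc2 (8.89) led them. The scaffold gene Sh3pxd2a, which encodes Tks5, was at 2.38, its relative Sh3pxd2b at 3.90 and the nucleation factor Wasl at 2.55. Its blood cell relative Was was at 5.33, and cortactin (Cttn) was not among the rows, whereas its blood cell relative Hcls1 was at 6.96. The other actin crosslinkers had a median of 5.58, led by Lcp1 at 9.03, with Fscn1 lowest at 0.38.

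Integrins and their partners had a median of 5.44 over 17 listed genes, including the kindlin gene Fermt3, which activates integrins in blood cells, at 6.55. Its relative Fermt2 was not among the rows. Adhesion plaque adaptors had a median of 4.92, with Lasp1 and Vasp both at 7.34, paxillin (Pxn) at 5.68 and Bcar1, which encodes the Src substrate p130Cas, lowest at 1.35. The kinases and ubiquitin ligases had a median of 4.38 over 13 genes, from 6.20 for Csk, the kinase that holds Src family members inactive, to 2.11 for Cblb. Csk thus stood 3.08 above Src. The kinase Syk, which links integrin and immune receptors, was at 4.64.

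**Figure D3:**
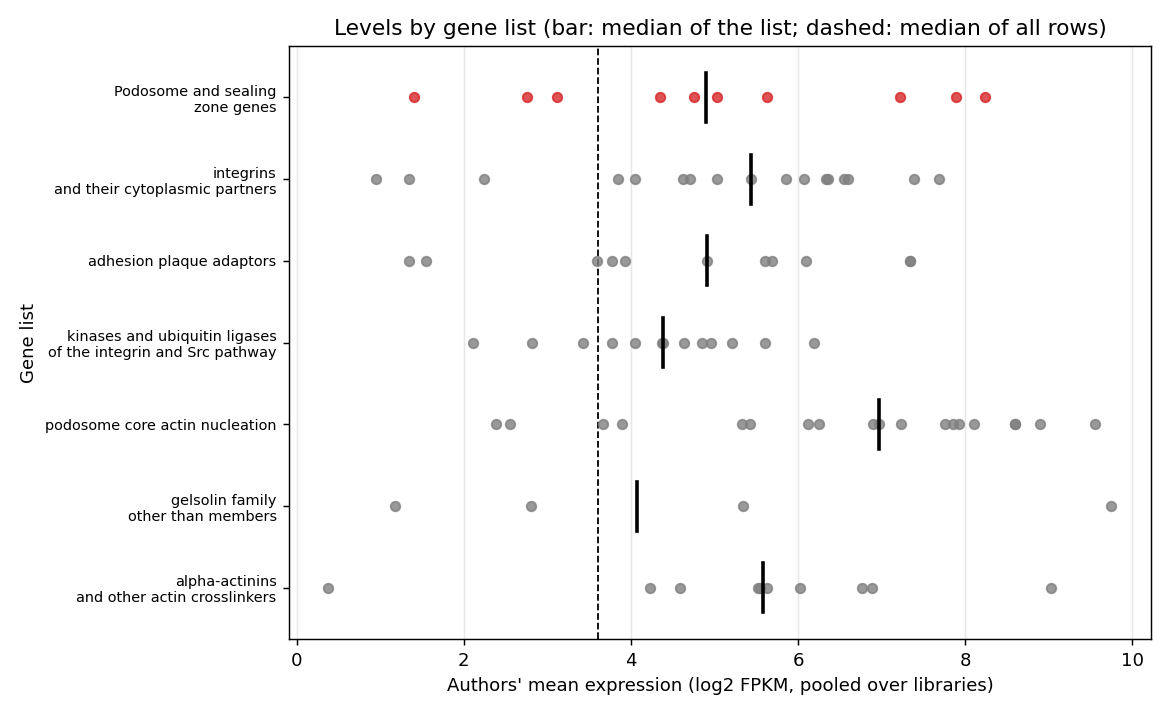
Each point is 1 gene at the authors' mean expression (log2 FPKM), in red for the 10 podosome genes and in grey for the 6 pathway lists, with a bar at the median of each list and a dashed line at the median of all rows (3.60). The podosome genes have a median of 4.89 and run from 1.41 to 8.24, and the actin core list has the highest median at 6.96.

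All 10 genes are annotated as protein-coding and lie on 5 chromosomes of GRCm38. Gsn (plus strand, 35256380 to 35307892), Itgav (plus, 83724397 to 83806916) and Src (plus, 157418444 to 157471862) are on chromosome 2. Tln1 (minus, 43531519 to 43562691) and Cdc42 (minus, 137319696 to 137357720) are on chromosome 4. Itgb3 (plus, 104608000 to 104670476) is on chromosome 11. Scin (minus, 40059769 to 40134228) and Actn1 (minus, 80167547 to 80260371) are on chromosome 12. Vcl (plus, 20929398 to 21033676) and Ptk2b (minus, 66153257 to 66281052) are on chromosome 14. Each level is that of the gene as a whole, so isoforms were not resolved. In the annotation carried by the table, 8 of the 10 belong to the KEGG pathway for regulation of the actin cytoskeleton, beside 3.04% of the 4604 rows with a pathway, and 7 belong to focal adhesion, beside 2.65%. Because the 10 were chosen as genes of this machinery, these shares follow from the choice and are not a result of the data. Of the 10, Itgb3 alone carries the osteoclast differentiation pathway, beside 2.32% of those rows.

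Reads of these genes were mostly distinct. Of the 50-base stretches in the transcripts of Cdc42, 2.19% also occur in other genes, among them Gm7407, Gm12492 and Gm6929, so a small part of its level is uncertain. The share was 0.87% for Scin and under that for the others. Overlaps in position were taken between whole gene spans, introns included. On the same strand, Gsn overlaps Gm43128 and Actn1 overlaps Gm47765, but neither pair had a 50-base stretch of transcript in common. On the opposite strand, Tln1 overlaps Creb3, Vcl overlaps Ap3m1, Cdc42 overlaps Gm25772, Itgav overlaps Gm13684 and Dnmt3l-ps1, and Actn1 overlaps Gm47767 and Gm47766. The libraries keep strand, but no source used here says whether the counting took it into account, so reads of these opposite-strand pairs may be mixed.

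The sequence around the start of transcription was compared for 8 of the 10 genes, those matched in the RefSeq promoter table (GRCm38.p6), from 250 bases before to 50 after the start. The genes Itgb3 and Ptk2b were not matched. Only the first window listed for a gene was used, and other starts of that gene were not looked at. The level covers the whole gene, whichever start its RNA came from. Src and Cdc42 are shown, the gene with most CpG dinucleotides among the 8 and the gene with the highest level, with each CpG in capitals. The Src window spans 157424043 to 157424342 of chromosome 2 (plus strand), inside the annotated gene, and the Cdc42 window spans 137357710 to 137358009 of chromosome 4 (minus strand).
Src: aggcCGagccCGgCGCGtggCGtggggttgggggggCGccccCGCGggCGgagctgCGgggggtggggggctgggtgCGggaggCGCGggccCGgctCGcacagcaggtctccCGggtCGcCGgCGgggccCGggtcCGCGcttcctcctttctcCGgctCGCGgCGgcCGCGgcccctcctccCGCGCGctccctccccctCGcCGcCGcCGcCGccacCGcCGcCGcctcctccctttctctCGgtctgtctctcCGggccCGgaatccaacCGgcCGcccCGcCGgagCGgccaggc
Cdc42: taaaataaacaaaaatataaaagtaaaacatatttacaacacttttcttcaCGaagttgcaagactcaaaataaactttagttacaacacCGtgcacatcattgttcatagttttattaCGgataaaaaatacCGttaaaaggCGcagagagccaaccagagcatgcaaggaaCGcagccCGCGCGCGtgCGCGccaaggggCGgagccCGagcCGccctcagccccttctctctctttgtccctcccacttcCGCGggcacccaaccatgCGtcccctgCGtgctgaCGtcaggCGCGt

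The Src window holds 47 CpG and 82.3% G and C, and 97.8% of 8635 listed genes with such a window have as many CpG or fewer. The Cdc42 window holds 22 CpG and 49.3% G and C, near the median of 21 CpG. The other windows hold 30 CpG for Vcl, 24 each for Itgav and Actn1, 20 for Gsn, and 16 each for Tln1 and Scin. The order by CpG did not follow the order by level, since Src, with the most CpG, had the second lowest level of the 8, and Tln1 and Scin, with equal counts, were 7.22 and 2.76. Over the 8635 genes the Spearman correlation of CpG count and level was 0.14, a weak relation across genes, which are not independent replicates and share base composition with their neighbours.

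Letters of motifs bound by osteoclast and macrophage factors were searched on both strands of the same windows. TGANTCA, the AP-1 site, was in none of the 8, beside 7.93% of 27025 promoters. GAGGAA, a core bound by PU.1, was in 4 of the 8 (Itgav, Gsn, Src and Tln1), beside 28.3% of promoters. GGAAA, the core of the NFAT site, was in the Gsn window only, beside 61.3% of promoters. These shares cover promoters of genes outside the table too. They were not adjusted for base composition, which ran from 49.3% G and C (Cdc42) to 82.3% (Src) in the 8 windows. GAGGAAA holds both of the last motifs. A match here is a description of letters, not a binding site.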

How the data were processed

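RNA sequencing of 6 RAW264.7 samples (3 control, 3 RANKL) was analysed from 1 deposited table of 11031 rows, 10947 with an Ensembl gene identifier and 84 of assembled loci. Per the labels, libraries were poly(A)-selected, strand-specific and paired-end. The submitters' processing notes name DESeq and mm10, and the authors' methods name DESeq2. Aligner, counter, annotation release and row filter are not given in the sources used here. As measurement, the analysis takes the deposited mean expression alone, a logarithm of FPKM per gene over libraries not named in the header. The base of the deposited values is not stated, and they were read as log2 because FPKM times exon length then sums over 10915 rows to 1.64 times the total that FPKM implies, against 17.8 times for a natural logarithm. The offset inside the logarithm is not stated, and 0 rows lie below 0.

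The 12 columns of values per library (FPKM and counts) match no sample label and were used in no step. The authors' own comparison fills 4 further columns (fold change, p-value, adjusted p-value and direction), which were not used. The planned count test between RANKL and control was for that reason not run, and the part of the rule for named genes that rests on fold changes could not be applied. Named instead were all 10 genes, their family relatives, 5 fixed markers, and further markers and pathway list genes chosen after their values were seen. The members and lists were chosen with earlier results of these data known, and the families after the levels were seen. From these lists, 1 gene and 1 list are not reported here and entered no count or median.

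Percentiles are the share of rows at or below a level. Coordinates, exon lengths and shared 50-base stretches came from GENCODE M21 (GRCm38, the mm10 assembly), and promoter windows from RefSeq. Calculations used Python 3.11.15, pandas 2.3.3, NumPy 2.4.6 and SciPy 1.17.1, with the functions tested on made-up data of known answer. Alternatives were other sets of rows and another offset, added after the data were seen.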

Additional observations from a re-analysis of the deposited data

How the results depend on the processing

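No paired analysis was possible because the columns of values per library could not be matched to samples, and for the same reason none of the alternatives planned for the test between RANKL and control (normalization, tool, filter, replicates left out, thresholds) was run. The levels were recomputed against other sets of rows, both chosen after seeing the data. Against the 10947 rows with an Ensembl identifier and against the 10885 rows of protein-coding genes, 7 of the 10 genes and 60 of the pathway genes stayed at or above the median, as with all rows. Over 20 such percentiles of the 10 genes, the largest move was 0.474 percentage points. Both sets keep nearly all of the 11031 rows, so little movement was possible. They do not bear on the pooling, the row filter or the normalization. The ratio of Cdc42 to Itgb3 on a linear scale depends on the offset inside the logarithm: it would be 114 with none and 182 with an offset of 1 FPKM. The gaps given here are differences of the deposited log values. Read as ratios of FPKM, those to the lowest genes depend on the offset too. The pooled mean has no error, no replicate number and no depth, and does not separate control from RANKL libraries.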
